A study of Rattus norvegicus with 9 samples.

Results

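The 38 genes described here mark leukocytes or encode the cytokines and chemokines that recruit them, and they were followed in rat kidney RNA across 3 groups. They were chosen by gene symbol from a fixed list, and 37 of them were found among the 19367 genes of the expression table. Ccr2 is not analysed here. The list holds the pan-leukocyte gene Ptprc, the adaptor genes Fcer1g and Tyrobp of myeloid and NK cells, and macrophage and other myeloid markers. It also holds T cell, B cell, NK cell and neutrophil markers, 5 chemokines, 3 chemokine receptors and 3 cytokines. No measured value entered the rule, but the list was drawn up with earlier results of these data known.

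The groups were dapagliflozin-treated SHR, untreated SHR and untreated WKY, with 3 sequencing libraries each. SHR is the inbred spontaneously hypertensive rat, and WKY, the Wistar-Kyoto rat, is its usual normotensive comparison strain. Dapagliflozin, an inhibitor of the glucose transporter SGLT2 of the proximal tubule, was given orally at 10 mg/kg daily for 8 weeks to rats that were 3 months old at the start. The untreated rats of both strains received vehicle, which 1 label field gives as distilled water and another as saline; the strain field reads Wistar-Kyoto for all samples, so groups follow the sample titles. Which animal each library came from is not stated, so every p-value rests on library-to-library spread, which may be partly technical.

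Leukocytes in the kidney include resident macrophages, which depend on the growth factor Csf1 and its receptor Csf1r, and smaller numbers of T, B and NK cells. Chemokines draw further cells from the blood: Ccl2 acts on monocytes through Ccr2, Cx3cl1 binds Cx3cr1 on monocytes and macrophages, and Cxcl12, made by stromal, endothelial and some epithelial cells, binds Cxcr4. In hypertension models, macrophages and T cells have been studied as contributors to renal injury and sodium retention, and these genes are the usual transcript readouts of their presence. In bulk tissue, fewer cells of a type and less RNA per cell cannot be told apart.

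Expression was given as FPKM (fragments scaled to transcript length and to the mapped reads of the library), a scale on which levels of different genes can be set side by side. Of the 37 genes, 25 passed the expression minimum of at least 1 FPKM in at least 3 of 9 libraries and were tested, and 12 were not. Only 15 of the 37 reached 1 FPKM in all 9 libraries and 6 reached 5 FPKM in all 9, whereas 8395 genes of the whole table reached 5 FPKM in all 9. FPKM sums lay between 563643 and 589838 per library. Library pairs correlated at 0.969 to 0.989 within groups and at 0.922 to 0.987 between groups (Pearson's r over genes; genes are no independent replicates). As a check of the tissue, none of 15 proximal tubule genes was listed at 0 in any library, and their mean log2(FPKM + 1) was 6.70 to 7.61 in treated SHR, 7.68 to 7.98 in SHR and 7.80 to 8.12 in WKY.

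**Figure D1:**
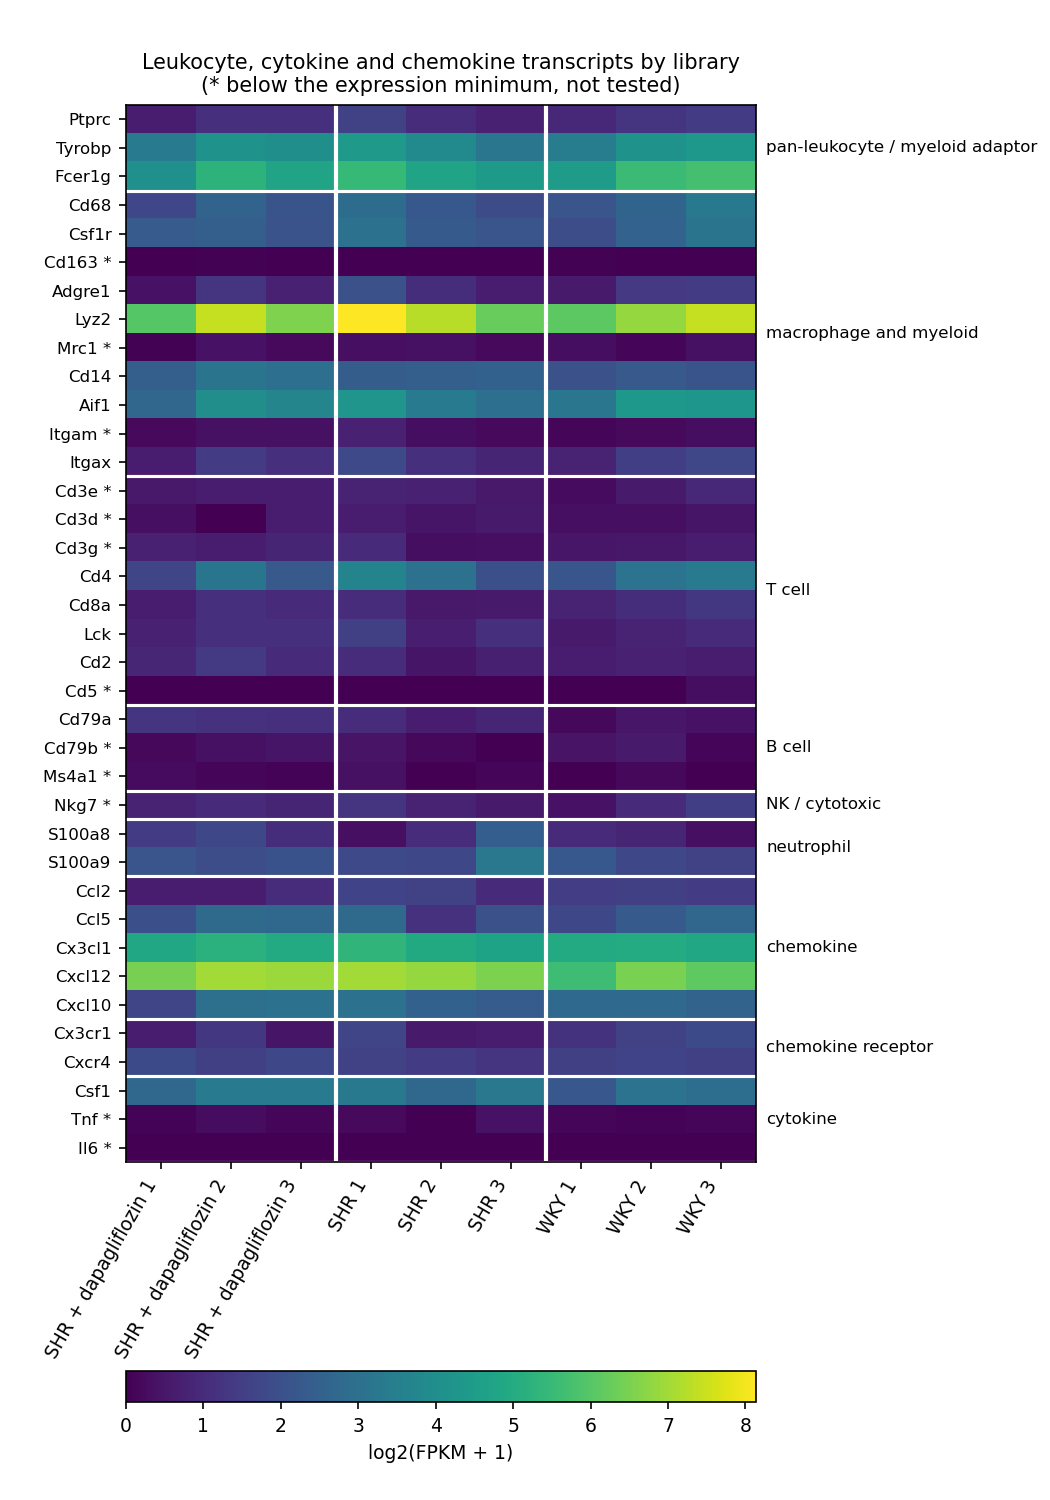
Level of the 37 measured genes, as log2(FPKM + 1) by colour, in each of the 9 libraries (columns, 3 per group), grouped by cell type or role (rows); asterisks mark the 12 genes below the expression minimum. Lyz2, Cxcl12, Cx3cl1, Fcer1g, Tyrobp and Aif1 are the only rows at 5 FPKM or more in all 9 libraries, and rows such as Lyz2, Fcer1g, Tyrobp, Cd68 and Cd4 brighten and dim together from library to library within each group, which Cd14, Mrc1 and Itgam do not in all groups.

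Among all 25 tested genes, none was called in dapagliflozin-treated SHR against SHR or in SHR against WKY, and 3 were called in treated SHR against WKY: Cd14 and Cd79a were higher and Ccl2 was lower. A call is an adjusted p under 0.05 by limma on log2(FPKM + 1), with Benjamini-Hochberg adjustment over all 13127 genes tested. The background for these counts is 0% of genes called in treated SHR against SHR, 2.96% in SHR against WKY and 22.9% in treated SHR against WKY, where 16.8% were called higher and 6.09% lower. The 3 comparisons share libraries, so they are not independent of each other. Treated SHR differ from WKY in both strain and treatment, and no WKY rats were treated. Strain and dapagliflozin therefore cannot be told apart in that comparison. The median log2 change of the 25 genes was -0.07 in treated SHR against SHR, -0.04 in SHR against WKY and -0.13 in treated SHR against WKY. Over all genes tested the medians were 0.04, 0.07 and 0.11 in the same 3 comparisons.

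Without adjustment, 4 of the 25 had p under 0.05 in treated SHR against SHR (Ccl2, Cd14, Cd79a and Cxcr4), beside 15.2% of all genes. In SHR against WKY there were 2 (Cd79a and Cxcl12), beside 19.5% of all genes, and in treated SHR against WKY 4 (Ccl2, Cd14, Cd79a and Cxcl12), beside 40.2%. The libraries of the groups did not overlap for 1 gene in treated SHR against SHR, where 19.0% of all genes did not overlap. They did not overlap for 3 genes in SHR against WKY (28.4% of all genes) and for 5 in treated SHR against WKY (38.6% of all genes). These shares of the 25 lie near or below the background.

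**Figure D2:**
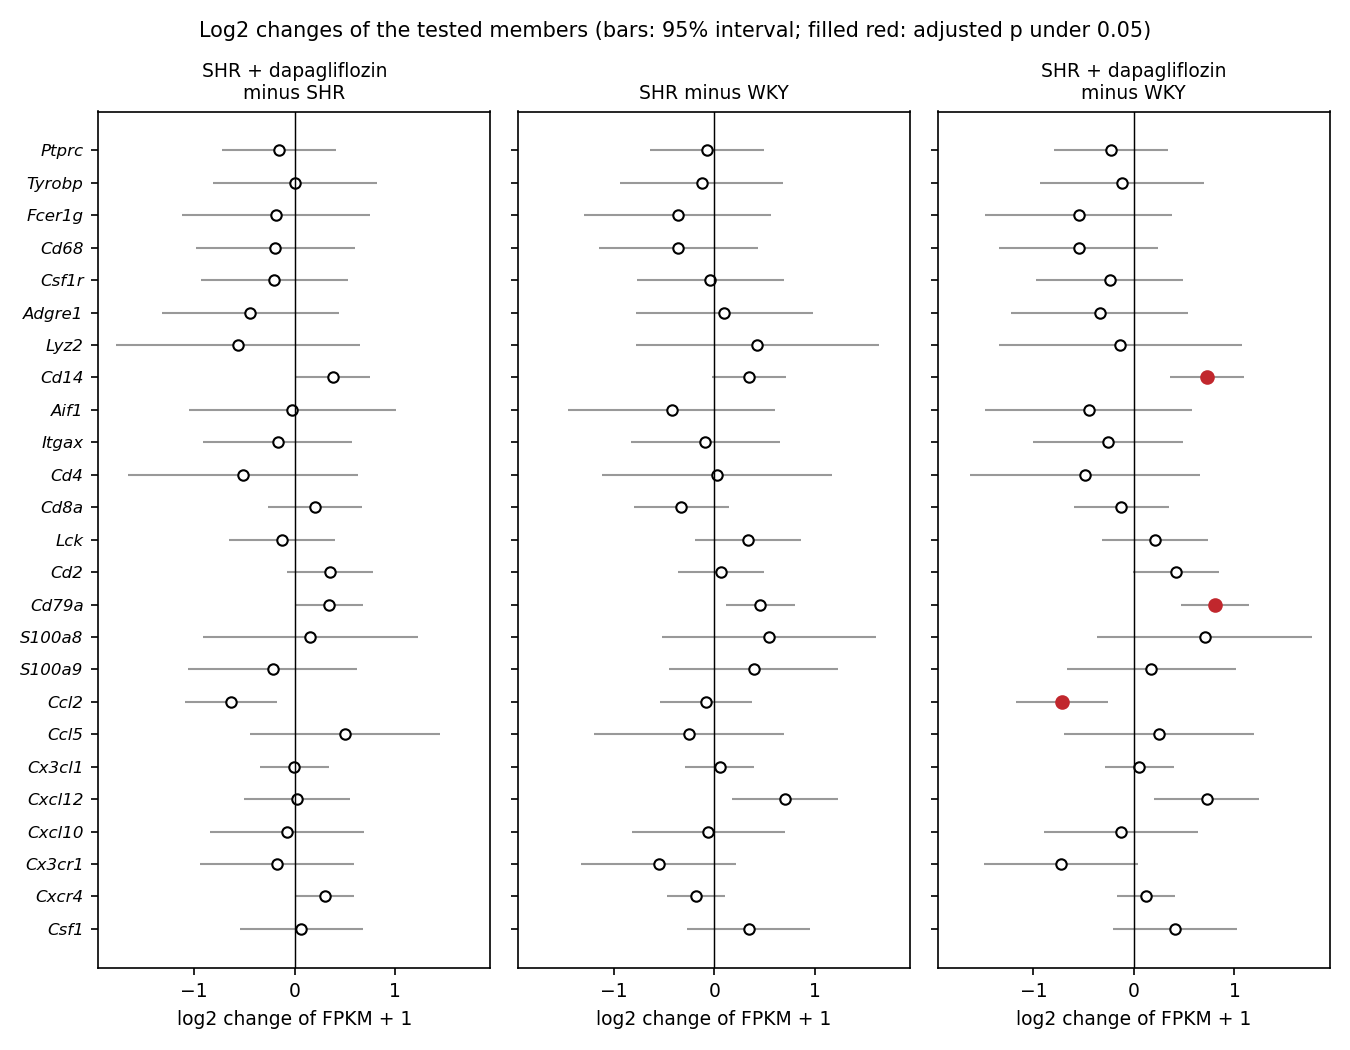
Log2 change of FPKM + 1 (horizontal axis) for the 25 tested genes in the 3 comparisons, each with its 95% interval from limma; filled red points have an adjusted p under 0.05. Filled points appear only in treated SHR minus WKY, at 0.73 for Cd14, 0.80 for Cd79a and -0.72 for Ccl2, and the widest intervals belong to Lyz2, Cd4, Aif1 and S100a8.

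Ptprc encodes CD45, the phosphatase carried by all nucleated leukocytes. It lay at 0.53, 1.20 and 1.21 FPKM in the treated SHR libraries 1 to 3, at 1.99, 1.05 and 0.68 in the SHR libraries and at 0.86, 1.38 and 1.71 in the WKY libraries. The 3 groups overlapped, and the log2 change was -0.16 (95% interval -0.73 to 0.41) in treated SHR against SHR and -0.07 (-0.64 to 0.50) in SHR against WKY. Those intervals leave room for changes of either sign in total CD45 transcript.

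Fcer1g and Tyrobp encode signalling adaptors with ITAM motifs that serve activating receptors of myeloid and NK cells. Fcer1g lay at 15.85, 37.26 and 25.99 FPKM in treated SHR, at 42.97, 26.14 and 20.43 in SHR and at 21.22, 45.56 and 51.81 in WKY. Tyrobp lay at 8.97, 17.16 and 15.49 FPKM in treated SHR, at 20.33, 13.92 and 8.25 in SHR and at 9.6, 17.04 and 19.04 in WKY. In both genes the library order was the same: library 1 was lowest in treated SHR and in WKY and highest in SHR. Neither gene was called in any comparison, with log2 changes between -0.55 and 0.01.

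The lysozyme gene Lyz2, an abundant product of macrophages, had the largest values among the myeloid markers and the same library order. Its levels were 62.90, 170.01 and 93.14 FPKM in treated SHR, 280.29, 153.60 and 75.53 in SHR and 66.81, 115.27 and 172.00 in WKY. Within a group the highest library exceeded the lowest by 2.70 times in treated SHR, 3.71 times in SHR and 2.57 times in WKY. The means were 109 ± 55.2 FPKM in treated SHR, 170 ± 103 in SHR and 118 ± 52.6 in WKY (SD, n = 3 each), and the log2 change of -0.56 in treated SHR against SHR had a 95% interval of -1.78 to 0.65.

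Cd68, a lysosomal glycoprotein of macrophages, lay at 2.31, 5.01 and 3.33 FPKM in treated SHR, at 6.29, 3.77 and 2.71 in SHR and at 3.45, 5.18 and 8.86 in WKY. Adgre1, which encodes the F4/80 antigen, lay at 0.31, 1.35 and 0.68 FPKM in treated SHR, at 3.03, 1.09 and 0.53 in SHR and at 0.49, 1.57 and 1.74 in WKY. Itgax, the CD11c integrin chain of dendritic cells and some macrophages, ran from 0.57 to 2.44 FPKM over the 9 libraries. All 3 genes had treated SHR library 2, SHR library 1 and WKY library 3 as the highest of their groups.

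Csf1r, the receptor on which tissue macrophages depend, lay at 4.05, 4.52 and 3.27 FPKM in treated SHR, at 7.35, 3.90 and 3.42 in SHR and at 2.80, 4.90 and 7.81 in WKY. Aif1, which encodes the calcium-binding protein IBA1, lay at 5.49, 15.39 and 12.06 FPKM in treated SHR, at 17.73, 9.01 and 6.78 in SHR and at 8.07, 19.35 and 18.15 in WKY. Their highest libraries were the same as above except for Aif1 in WKY, where library 2 was highest. No log2 change of these macrophage genes reached a call, and all their groups overlapped.

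Cd14, the coreceptor for lipopolysaccharide on monocytes and macrophages, shared the library order of Lyz2 in treated SHR, with library 2 highest and library 1 lowest, but not in SHR or WKY. It lay at 4.56, 7.74 and 6.82 FPKM in treated SHR, at 4.31, 4.56 and 4.80 in SHR and at 3.07, 3.79 and 3.29 in WKY. The treated SHR and WKY libraries did not overlap, the SHR libraries lay above all WKY libraries, and treated library 1 lay within the SHR range. Cd14 was higher in treated SHR than in WKY by a log2 change of 0.73 (SE 0.16, limma adjusted p = 0.0185), with means of 6.37 ± 1.64 FPKM in treated SHR and 3.38 ± 0.37 in WKY (SD, n = 3 each). That call was lost without WKY library 1 (adjusted p = 0.0662), WKY library 3 (0.0685), treated library 2 (0.0594) or treated library 3 (0.0664), and when only these 2 groups were fitted (0.0556).

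Against SHR, the log2 change of Cd14 in treated SHR was 0.38 (SE 0.16, limma adjusted p = 0.318), and leaving out single treated libraries gave 0.57 without library 1 (adjusted p = 0.0344), 0.25 without library 2 (0.573) and 0.33 without library 3 (0.750). SHR against WKY gave 0.34 (SE 0.16, limma adjusted p = 0.279). Injured tubular epithelium can also express Cd14, as known from work in rodents, so this transcript is not restricted to leukocytes.

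The remaining myeloid markers were below the minimum. Cd163, the haemoglobin scavenger receptor of macrophages, did not exceed 0.03 FPKM in any library and was listed at 0 in all 3 SHR libraries. Mrc1, the mannose receptor CD206, ran from 0.04 to 0.32 FPKM and Itgam, the CD11b integrin chain, from 0.08 to 0.66. Of the defining macrophage markers Csf1r, Cd68, Adgre1 and Cd163, the first 3 were therefore present and Cd163 was at or near 0.

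**Figure D3:**
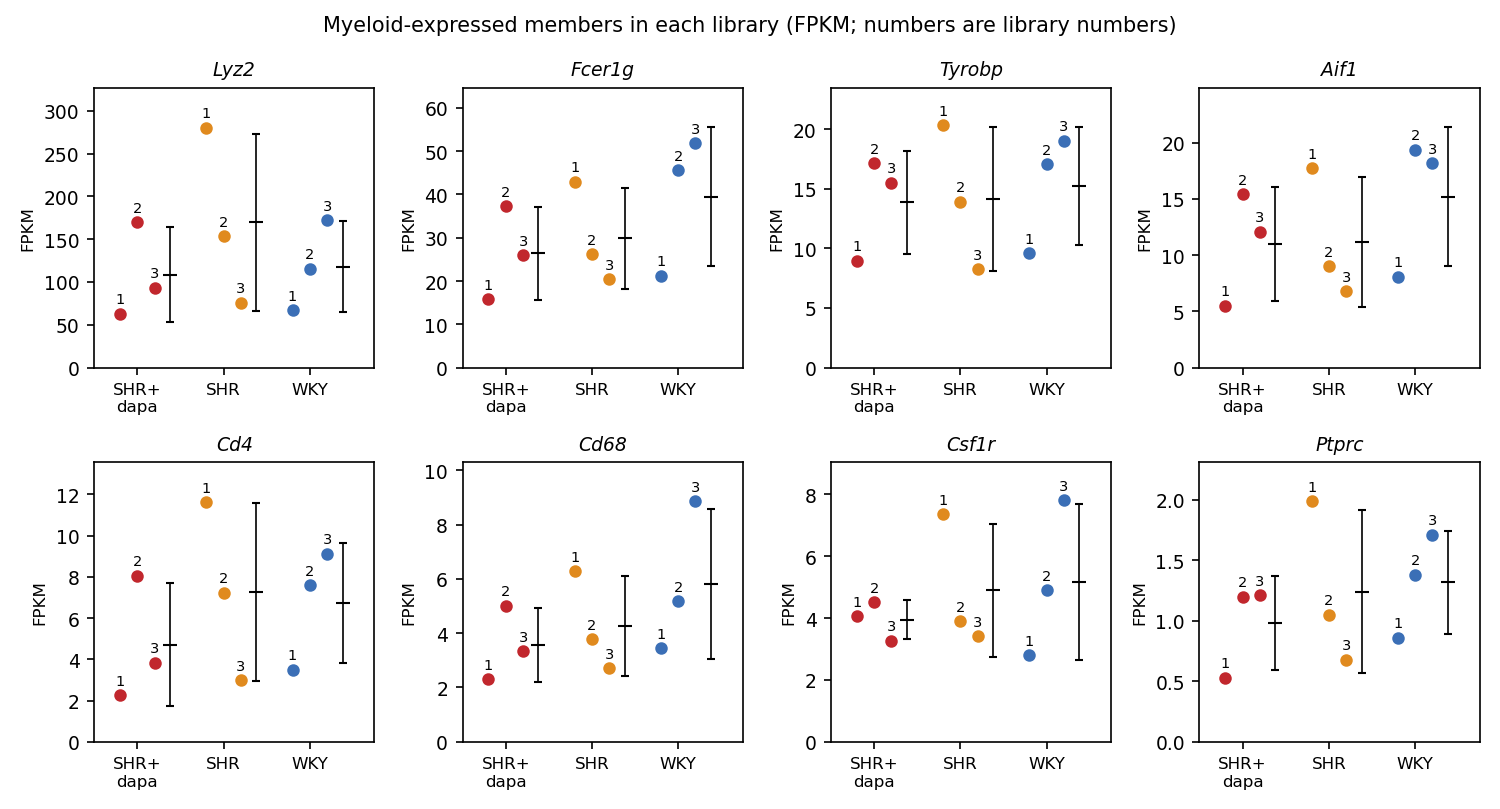
FPKM (vertical axis, linear from 0) of 8 genes in each library, with treated SHR, SHR and WKY from left to right, the library number above each point, and the group mean ± SD in black (n = 3). In Lyz2, Fcer1g, Tyrobp, Cd4 and Cd68, treated library 2, SHR library 1 and WKY library 3 are the highest of their groups, and the 3 groups overlap in every panel.

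The shared library order was then counted over all genes. It was chosen after these values had been seen, so the counts are a description with no test. In treated SHR, library 2 was highest and library 1 lowest for 15 of 25 tested genes, against 18.1% of all genes. SHR library 1 was highest and library 3 lowest for 15 of 25, against 14.3% of all genes, and WKY library 3 was highest and library 1 lowest for 13 of 25, against 13.5%. All 3 orders together held for Adgre1, Cd4, Cd68, Fcer1g, Itgax, Lyz2 and Tyrobp, 7 of the 25, and for 116 of 13127 genes (0.884%). Among 34 other tested myeloid genes they held for 13. These include C1qb and C1qc (complement C1q chains made by macrophages), Spi1 (the myeloid transcription factor PU.1), Ctss (cathepsin S) and Ncf1 (a subunit of the phagocyte oxidase).

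The spread between libraries of 1 group was wide for these genes. The median coefficient of variation of the 25 genes was 34.7% in treated SHR, 47.2% in SHR and 34.4% in WKY. Over all 13127 genes it was 12.9%, 9.11% and 11.1% in the same groups, and weakly expressed genes vary more on this measure. Among the 7181 genes with a mean of at least 10 FPKM, the highest library was at least 2 times the lowest in every group for 50 genes (0.696%). Aif1, Fcer1g and Lyz2 were 3 of those 50, out of 6 genes of the list at that level.

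Other gene lists moved with the myeloid genes in part. The mean log2(FPKM + 1) of the 7 tested macrophage markers was 2.32, 3.19 and 2.76 in treated SHR, 3.50, 2.83 and 2.46 in SHR and 2.39, 3.07 and 3.34 in WKY. Over 6 red cell genes it was 6.72, 7.04 and 7.27 in treated SHR, 7.45, 6.96 and 7.22 in SHR and 6.47, 6.65 and 7.29 in WKY. SHR library 1 and WKY library 3 were the highest of their groups on both lists, and treated library 1 and WKY library 1 the lowest. Over 11 endothelial genes treated library 1, at 4.07, and WKY library 1, at 3.33, were also the lowest of their groups, beside 4.07 to 4.67 in treated SHR, 4.14 to 4.70 in SHR and 3.33 to 4.39 in WKY as a whole. Treated library 2 and SHR library 1, highest for the macrophage markers, were also highest over the 11 endothelial, 9 stromal and 15 proximal tubule genes. WKY library 3 was not the highest WKY library on those lists. That part of the order was thus not particular to myeloid genes. The part of blood content or of vessel content in the myeloid order was not tested.

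**Figure D4:**
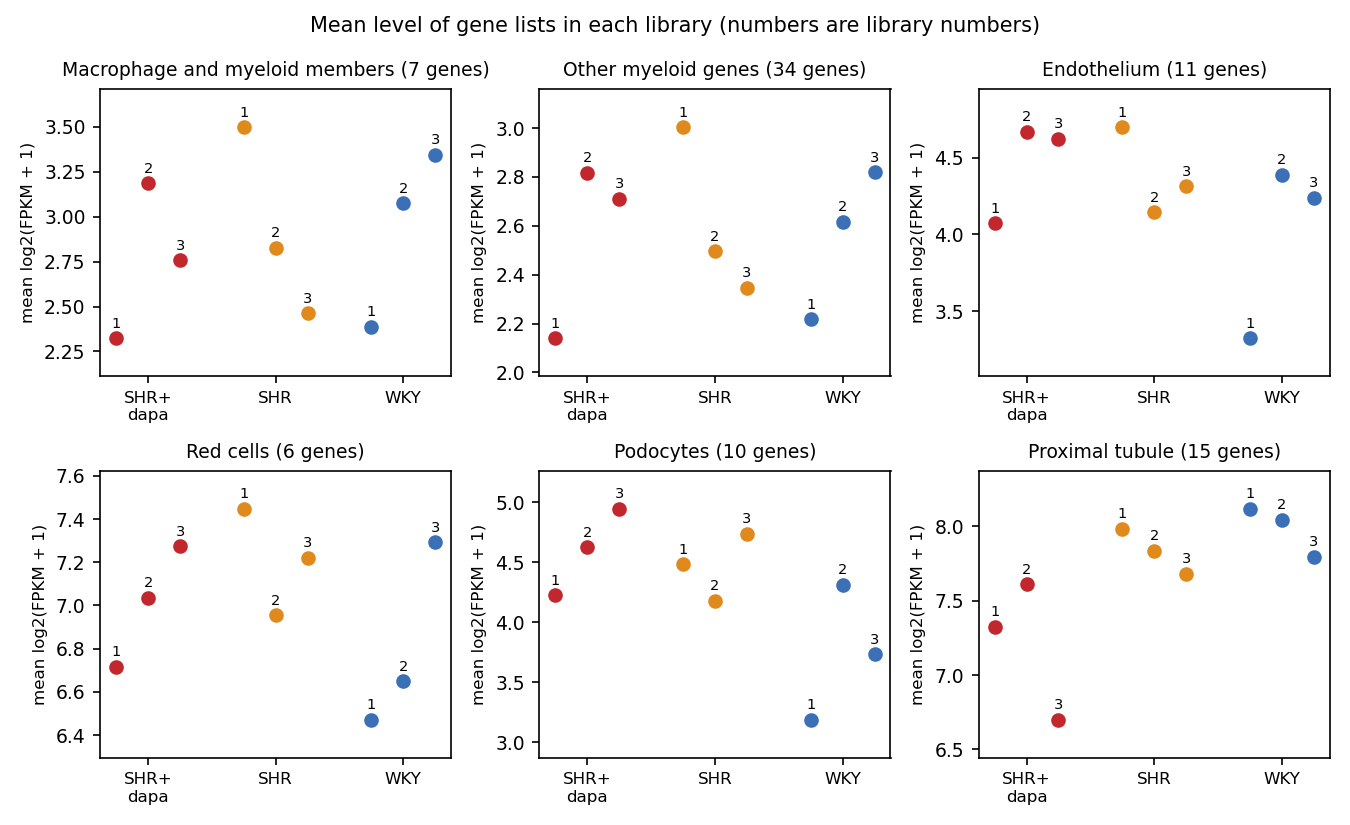
Mean log2(FPKM + 1) (vertical axis, not starting at 0) of 6 gene lists in each library, with treated SHR, SHR and WKY from left to right and the library number above each point. The macrophage markers and the 34 other myeloid genes put treated library 2, SHR library 1 and WKY library 3 highest in their groups. Endothelial and proximal tubule genes also put treated library 2 and SHR library 1 highest, but not WKY library 3. Podocyte genes put library 3, library 3 and library 2 highest.

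T cells are defined by the CD3 chains, which transmit the signal of the antigen receptor. Cd3e ran from 0.18 to 0.90 FPKM, Cd3d from 0 to 0.55 and Cd3g from 0.22 to 1.01, and none of these 3 genes was tested. Cd5, an inhibitory receptor of T cells, was listed at 0 in 8 libraries and at 0.24 FPKM in WKY library 3. Transcripts of the CD3 chains and Cd5 were thus at or below about 1 FPKM in all 3 groups.

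Cd4, the coreceptor of helper T cells, was far above the CD3 chains. It lay at 2.27, 8.05 and 3.83 FPKM in treated SHR, at 11.61, 7.23 and 2.98 in SHR and at 3.49, 7.60 and 9.13 in WKY. Rat monocytes and macrophages also carry CD4. The order of Cd4 across libraries was that of Lyz2, Cd68 and Tyrobp in all 3 groups. Which cells the Cd4 transcript came from was not tested. Its log2 change was -0.51 (95% interval -1.66 to 0.63) in treated SHR against SHR and 0.03 (-1.12 to 1.17) in SHR against WKY.

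Cd8a, the coreceptor of cytotoxic T cells, lay at 0.57, 1.17 and 1.02 FPKM in treated SHR, at 1.04, 0.48 and 0.50 in SHR and at 0.70, 1.10 and 1.5 in WKY. Lck, the kinase bound to these coreceptors, ran from 0.49 to 1.94 FPKM. Cd2, an adhesion receptor of T and NK cells, lay at 0.84, 1.59 and 1.02 FPKM in treated SHR, at 1.06, 0.37 and 0.63 in SHR and at 0.57, 0.68 and 0.52 in WKY. The Cd2 libraries of treated SHR lay above all those of WKY, with a log2 change of 0.42 (SE 0.19) that missed the threshold (limma adjusted p = 0.130). Cd2 passed the expression minimum only through treated libraries 2 and 3 and SHR library 1. Nkg7, a granule protein of NK and cytotoxic T cells, ran from 0.31 FPKM in WKY library 1 to 1.82 in WKY library 3 and was not tested.

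B cells were represented by 3 genes that did not follow each other. Cd79a, a signalling chain of the B cell receptor, lay at 1.33, 1.25 and 1.18 FPKM in treated SHR, at 1.03, 0.54 and 0.79 in SHR and at 0.14, 0.42 and 0.33 in WKY. The 3 groups did not overlap at all, with treated SHR on top and WKY at the bottom. Cd79a was higher in treated SHR than in WKY by a log2 change of 0.80 (SE 0.15, limma adjusted p = 0.0116). It passed the expression minimum only through the 3 treated libraries and SHR library 1. The call held in every alternative and every left-out library, with 0.0480 as the highest limma adjusted p. The left-out fits kept the genes selected from all 9 libraries, so they are no independent support. Treated SHR against SHR gave 0.34 (SE 0.15, limma adjusted p = 0.324) and SHR against WKY 0.46 (SE 0.15, limma adjusted p = 0.155), neither called.

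The other B cell genes did not show this order. Cd79b, the partner chain of Cd79a, lay at 0.13, 0.28 and 0.37 FPKM in treated SHR, at 0.35, 0.14 and 0 in SHR and at 0.34, 0.49 and 0.07 in WKY. Ms4a1, the CD20 antigen, did not exceed 0.28 FPKM and was listed at 0 in 3 libraries. Both were below the minimum.

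S100a8 and S100a9 encode the pair of calcium-binding proteins that form calprotectin, abundant in neutrophils. S100a9 lay at 3.46, 2.82 and 3.11 FPKM in treated SHR, at 2.44, 2.38 and 8.50 in SHR and at 3.74, 2.42 and 2.02 in WKY. S100a8 lay at 1.72, 2.41 and 1.11 FPKM in treated SHR, at 0.27, 1.04 and 4.44 in SHR and at 1.01, 0.79 and 0.26 in WKY. SHR library 3 stood above all other libraries in both genes and was the lowest SHR library in Lyz2, Cd68 and Fcer1g. For S100a8 the treated SHR libraries lay above those of WKY, with a log2 change of 0.70 (SE 0.47, limma adjusted p = 0.288).

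Cxcl12 was the most abundant chemokine of the list. It lay at 88.21, 128.65 and 119.81 FPKM in treated SHR, at 126.37, 113.24 and 90.71 in SHR and at 48.24, 89.07 and 68.95 in WKY. The SHR libraries lay above all WKY libraries, by a margin of 90.71 against 89.07 FPKM, while treated library 1 lay below WKY library 2. The log2 change was 0.70 (SE 0.23, limma adjusted p = 0.158) in SHR against WKY, 0.72 (SE 0.23, limma adjusted p = 0.0525) in treated SHR against WKY and 0.02 (95% interval -0.50 to 0.55) in treated SHR against SHR. The treated SHR against WKY difference passed the threshold without WKY library 2 (adjusted p = 0.0230) or without treated library 1 (0.0217).

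Endothelial and podocyte genes were lowest in WKY library 1, as were 19 of the 25 tested genes, Cxcl12 among them. In SHR the orders differed. Cxcl12 was lowest in SHR library 3, where the podocyte mean was highest, and the endothelial mean was lowest in SHR library 2. Mean log2(FPKM + 1) over 10 podocyte genes was 4.22 to 4.95 in treated SHR, 4.18 to 4.74 in SHR and 3.19 to 4.31 in WKY, with 3.19 in WKY library 1. Over the 11 endothelial genes that library stood at 3.33. Their part in the Cxcl12 values was not tested.

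Ccl2, the monocyte chemoattractant MCP-1, lay at 0.52, 0.56 and 1.05 FPKM in treated SHR, at 2.14, 1.98 and 0.94 in SHR and at 1.81, 1.90 and 1.65 in WKY. All treated SHR libraries lay below all WKY libraries, but SHR library 3 lay within the treated range. Ccl2 was lower in treated SHR than in WKY by a log2 change of -0.72 (SE 0.20, limma adjusted p = 0.0370), with means of 0.71 ± 0.30 FPKM in treated SHR and 1.79 ± 0.13 in WKY (SD, n = 3 each). The call was lost when any single WKY or treated library or SHR library 2 was left out, at adjusted p of 0.0509 to 0.107, and with a replicate block, at 0.0643. Treated SHR against SHR gave -0.63 (SE 0.20, limma adjusted p = 0.285), and SHR against WKY gave -0.08 (SE 0.20, limma adjusted p = 0.842).

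**Figure D5:**
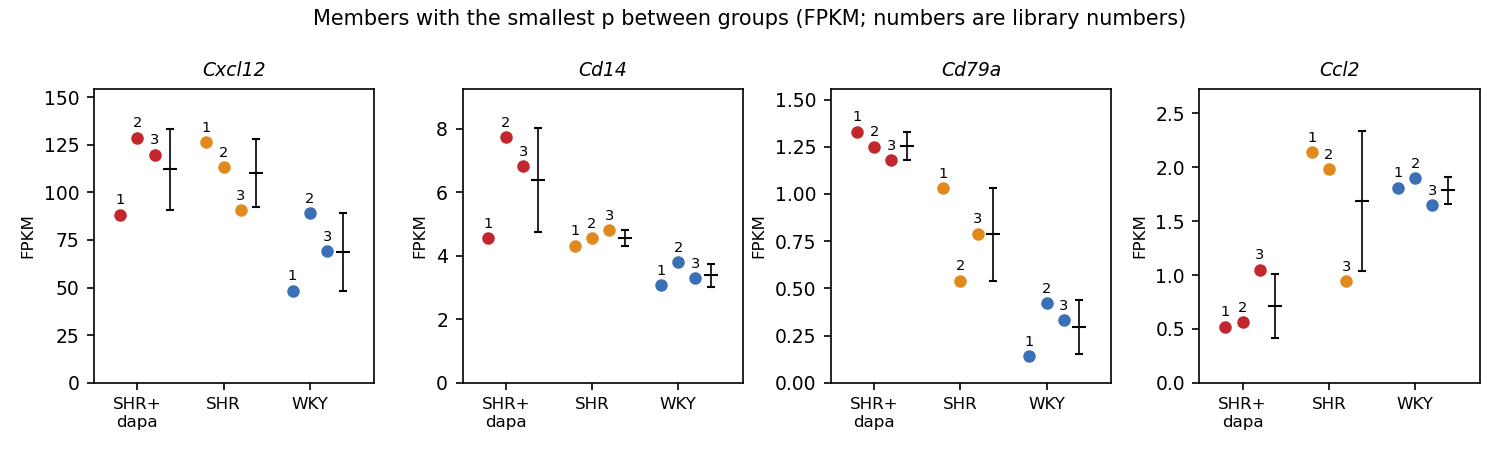
FPKM (vertical axis, linear from 0) of Cxcl12, Cd14, Cd79a and Ccl2 in each library, with treated SHR, SHR and WKY from left to right, the library number above each point, and the group mean ± SD in black (n = 3). Cd79a separates all 3 groups, Cd14 and Ccl2 separate treated SHR from WKY, and treated library 1 of Cxcl12 lies below WKY library 2.

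The other chemokines showed no difference that passed the test. Cx3cl1, a membrane-anchored chemokine of epithelium and endothelium, was among the steadiest, at 27.77, 35.27 and 30.33 FPKM in treated SHR, at 39.31, 30.00 and 25.22 in SHR and at 30.18, 31.06 and 28.33 in WKY. Its log2 change had 95% intervals of -0.34 to 0.34 in treated SHR against SHR and -0.29 to 0.40 in SHR against WKY. Cxcl10, an interferon-induced chemokine for T cells, lay at 2.24, 7.07 and 7.15 FPKM in treated SHR, at 7.20, 4.81 and 4.20 in SHR and at 5.82, 5.87 and 4.96 in WKY. Ccl5, a T cell and monocyte attractant, ran from 1.24 to 6.02 FPKM, with the lowest and a near-highest value (6.01) both in SHR.

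Of the receptors, Cx3cr1 lay at 0.55, 1.47 and 0.39 FPKM in treated SHR, at 2.24, 0.51 and 0.56 in SHR and at 1.26, 2.03 and 2.53 in WKY. SHR library 1 overlapped the WKY range, and the log2 change of -0.73 (SE 0.34) in treated SHR against WKY did not pass (limma adjusted p = 0.143). Cxcr4 lay at 2.52, 1.94 and 2.36 FPKM in treated SHR, at 1.98, 1.65 and 1.33 in SHR and at 1.93, 2.12 and 1.94 in WKY. Treated SHR against SHR gave a Cxcr4 log2 change of 0.31 (SE 0.13, limma adjusted p = 0.315).

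Among the cytokines, only Csf1 was expressed well enough to be tested. It lay at 5.68, 9.28 and 9.31 FPKM in treated SHR, at 8.84, 5.60 and 8.49 in SHR and at 3.64, 7.54 and 6.64 in WKY, with overlapping groups. Its log2 change was 0.07 (SE 0.27) in treated SHR against SHR and 0.34 (SE 0.27) in SHR against WKY, with limma adjusted p of 0.923 and 0.502. Tnf, the macrophage cytokine tumour necrosis factor, did not exceed 0.32 FPKM, and Il6, interleukin 6, was listed at 0 in all 9 libraries.

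RefSeq upstream sequences (GRCr8 build) were matched for 27 of the 37 genes. The motif GAGGAA, contained in many sites bound by the myeloid factor PU.1, was searched on both strands in the 250 bases before the gene start. It was found for 15 of the 27, and in 23.3% of 33469 rat promoters of the same length. Some windows with a match, among them those of Cd14, Csf1r and Lyz2, lie at least partly inside annotated genes. A match is a description of letters and no evidence of binding. The 3 windows are shown because their genes carry the patterns described: Cd68 the shared myeloid library order, Cd79a the separation of all 3 groups, and Cxcl12 the difference between SHR and WKY libraries. Capitals mark the motif or its complement TTCCTC. In Cd68 (chr10:54882442-54882691, minus strand) it starts at position -27 from the gene start, in Cd79a (chr1:89621210-89621459, plus strand) at -141, and in Cxcl12 (chr4:152060531-152060780, plus strand) there was no match in this window.
Cd68: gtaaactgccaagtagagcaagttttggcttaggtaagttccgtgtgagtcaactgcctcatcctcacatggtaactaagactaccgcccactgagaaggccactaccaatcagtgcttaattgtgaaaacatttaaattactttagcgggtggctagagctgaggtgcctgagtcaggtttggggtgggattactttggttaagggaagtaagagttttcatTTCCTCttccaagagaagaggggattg
Cd79a: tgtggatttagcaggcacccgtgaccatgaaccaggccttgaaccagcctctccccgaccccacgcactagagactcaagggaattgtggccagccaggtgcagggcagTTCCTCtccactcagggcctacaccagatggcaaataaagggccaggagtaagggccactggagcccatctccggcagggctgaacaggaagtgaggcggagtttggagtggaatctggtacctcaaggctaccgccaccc
Cxcl12: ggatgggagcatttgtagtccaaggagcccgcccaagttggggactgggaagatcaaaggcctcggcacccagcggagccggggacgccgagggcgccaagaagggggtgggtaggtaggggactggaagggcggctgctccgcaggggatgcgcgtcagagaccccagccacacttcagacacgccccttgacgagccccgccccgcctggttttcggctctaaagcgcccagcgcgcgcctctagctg

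To place the 25 tested genes, 9 further lists of leukocyte, chemokine and cytokine genes were read from the same fit. They held 243 genes, 230 of them in the table and 116 tested. In treated SHR against SHR 0 of the 116 were called, beside 0% of all genes, and 14 had an unadjusted p under 0.05, beside 15.2%. In SHR against WKY 2 were called higher and 0 lower, beside 2.96% of all genes called. In treated SHR against WKY 17 were called higher, beside 16.8% of all genes, and 4 lower, beside 6.09%. These shares of the 116 lie near or below the background, and the counts of single lists that follow stand beside the same 16.8% and 6.09%. The median log2 change of the 116 was -0.03, 0.12 and 0.07 in these 3 comparisons.

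In SHR against WKY the called genes were Il18 and Pf4. Il18, an inflammasome-processed cytokine, averaged 24.5 ± 10.1 FPKM in SHR and 5.17 ± 2.24 in WKY (SD, n = 3 each), a log2 change of 2.05 (SE 0.32, limma adjusted p = 0.0115). Treated SHR, at 25.2 ± 4.31 FPKM, had an Il18 log2 change of 2.14 (SE 0.32) against WKY (limma adjusted p = 0.00605). Pf4, the platelet chemokine platelet factor 4, lay at 8.18, 10.11 and 15.22 FPKM in treated SHR, at 10.71, 6.57 and 10.45 in SHR and at 1.45, 3.03 and 0.90 in WKY. Pf4 was higher in SHR than in WKY by a log2 change of 1.92 (SE 0.31, limma adjusted p = 0.0142), a call lost without WKY library 1 or 3 or SHR library 1 or 3. In treated SHR against WKY its log2 change was 2.15 (SE 0.31, limma adjusted p = 0.00530) and the call held in every left-out library.

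In treated SHR against WKY the chemokine list had 3 genes higher and 2 lower of 16 tested. Ccl28, a mucosal epithelial chemokine, and Ccl27, a skin-homing chemokine, were higher by 0.90 and 0.45 on the log2 scale beside Pf4. Cxcl13, which attracts B cells, was lower, at 1.40, 1.90 and 2.71 FPKM in treated SHR and 3.90, 6.91 and 7.27 in WKY (log2 change -1.21, limma adjusted p = 0.0215), and Cxcl16, a membrane-anchored chemokine, was lower by a log2 change of -0.57. All of these except Pf4 lost the call without WKY library 3 and in some other left-out libraries. Of 4 chemokine receptors tested, Ackr3, the scavenger receptor that binds Cxcl12, was higher. It averaged 83.0 ± 25.0 FPKM in treated SHR and 37.9 ± 13.9 in WKY (SD, n = 3 each, limma adjusted p = 0.0215). The Ackr3 call was lost without WKY library 1 or 3 or treated library 2 or 3, and when only these 2 groups were fitted.

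The other myeloid list had 4 genes higher and 1 lower of 34 tested in treated SHR against WKY. Lgals3 (galectin 3), Lyn (a Src-family kinase), Cd86 (a costimulatory ligand) and Lyve1 (a hyaluronan receptor of lymphatic vessels and some macrophages) were higher, by log2 changes of 1.17, 0.68, 0.60 and 0.72. Itgb2, the common chain of leukocyte integrins, was lower, at 2.53 ± 0.27 FPKM in treated SHR and 4.36 ± 1.06 in WKY (SD, n = 3 each; log2 change -0.59, limma adjusted p = 0.0442). Of these 5 calls only that of Lgals3 held in every left-out library. Lgals3 lay at 31.57, 38.88 and 48.00 FPKM in treated SHR, at 28.19, 25.47 and 34.41 in SHR and at 12.74, 20.70 and 17.68 in WKY. That library order was not the order of Lyz2. In all 3 groups it was that of the mean of the 10 collecting duct genes described below and that of the mean of the 10 podocyte genes. Its share over all genes was not counted. Which cells the Lgals3 transcript came from was not tested. The median of the 34 genes was -0.03, beside 0.11 for all genes.

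Among the lymphoid and mast cell lists, Gata3, Pou2af1 and Kit were higher in treated SHR than in WKY, 1 gene of each list, and held in every left-out library. Gata3, a T cell factor that also specifies collecting duct epithelium, averaged 58.5 ± 17.2 FPKM in treated SHR and 22.1 ± 4.15 in WKY (SD, n = 3 each; log2 change 1.34, limma adjusted p = 0.00870), levels far above those of the CD3 chains. Pou2af1, a B cell coactivator, averaged 2.87 ± 0.46 FPKM in treated SHR and 0.93 ± 0.12 in WKY (SD, n = 3 each; limma adjusted p = 0.00235), and Kit, the stem cell factor receptor of mast cells and some epithelia, had a log2 change of 1.02 (limma adjusted p = 0.00735). Beside them, all 10 collecting duct genes tested were called higher in this comparison, beside 16.8% of all genes. Their mean log2(FPKM + 1) was 6.83 to 7.69 in treated SHR and 5.40 to 6.09 in WKY. In treated SHR against SHR their median log2 change was 0.74, with 0 called, beside 0.04 for all genes. The median of the 15 proximal tubule genes in that comparison was -0.61, with 0 called. In SHR against WKY the collecting duct median was 0.81, with 1 called, beside 0.07 for all genes. The part of these shifts in the calls and log2 changes of any comparison was not tested. That holds for the lymphoid and mast cell lists and for the myeloid, chemokine, cytokine, receptor and adhesion lists.

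The cytokine, cytokine receptor and adhesion lists gave 6 genes higher and 1 lower in treated SHR than in WKY, of 17, 19 and 8 tested. Spp1 (osteopontin, made by tubular epithelium and macrophages) averaged 301 ± 94.5 FPKM in treated SHR and 131 ± 28.6 in WKY (SD, n = 3 each; log2 change 1.17, limma adjusted p = 0.0152). Il18, Il17ra, Il13ra1, Il6st and F11r (a junctional adhesion molecule) were the other genes called higher, and the endothelial adhesion ligand Icam1 was lower, with a log2 change of -0.36. In this group of 7 only Il18 kept its call in every left-out library. In treated SHR against SHR, Pou2af1, Cd86 and Kit shared the smallest limma adjusted p of the further genes, 0.281, with log2 changes of 0.66, 0.58 and 0.53. Of the 34 further genes followed through the alternatives, without treated library 1 Pou2af1, Cd86, Spp1 and F11r were called higher and Mzb1 (a plasma cell chaperone) and Il34 (another ligand of Csf1r) lower.

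Scaling bears on the direction of these counts. The median log2 change of all genes in treated SHR against WKY was 0.11 as deposited and -0.01 after median-of-ratios scaling. Of the genes called in that comparison, 73.5% were higher as deposited, 54.2% after median-of-ratios scaling and 59.9% after quantile normalization; in SHR against WKY these shares were 62.1%, 51.6% and 49.6%. After median-of-ratios scaling the log2 changes in treated SHR against WKY were 0.61 for Cd14, 0.75 for Cd79a and -0.79 for Ccl2, and all 3 stayed called. Among these 34 further genes, Lyve1, Ccl27 and Il6st lost their higher calls under both scalings in that comparison. Under both scalings Cd84 (a myeloid and lymphoid surface receptor) and Ccl9 (a CC chemokine), with log2 changes of -0.56 and -0.87 as deposited, gained lower calls.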

How the data were processed

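Rat kidney RNA was measured in 9 libraries. Per the labels' protocols, RNA was extracted with Trizol and sequenced as single-end reads of 50 bases on a BGISEQ-500. The submitters' processing notes name Bowtie2 2.2.5, HISAT2 2.0.4 and the build Rnor_6.0 without their roles; quantifier, annotation and filters: not given in the sources used here. The authors deposited FPKM, per the file headers, with 2 decimals and 1 column per library. FPKM is relative, so a change in abundant transcripts shifts all others. Read totals are unknown, and the low values, rounded to 2 decimals, did not settle relative depth.

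Genes with at least 1 FPKM in at least 3 libraries, 13127 in all, were tested on log2(FPKM + 1), a scale that understates changes of weakly expressed genes. limma 3.58.1 in R 4.3.3 fitted group means of all 9 libraries (6 residual degrees of freedom, intensity trend), two-sided, with Benjamini-Hochberg adjustment over all genes tested and a threshold of 0.05. The script was tested on simulated data. Python 3.11.15, pandas 2.3.3 and matplotlib 3.10.9 made tables and plots. Alternatives were other scalings, pseudocounts of 0.1 and 0.01, other filters, no trend, 2 groups only, array weights, a replicate block and leaving out each library.

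The members and lists were chosen with earlier results of these data known. All 38 members are named, and from the further lists each gene called, at most 6 per list and comparison, or up to 2 with the smallest p where none was called.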

Additional observations from a re-analysis of the deposited data

How the results depend on the processing

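The labels do not say that library numbers pair libraries. Deviations from group means of same-numbered libraries correlated at -0.24, -0.21 and 0.18 in treated SHR against SHR. They correlated at -0.33, -0.20 and -0.20 in SHR against WKY, and at 0.46, 0.39 and 0.0003 in treated SHR against WKY. Libraries of different number were not compared, so these values do not settle whether the number pairs libraries. With the number as a replicate block, 1, 282 and 2700 genes were called in these comparisons, beside 0, 388 and 3010, and 0, 0 and 2 of the 25 list genes, beside 0, 0 and 3. With array weights, which down-weight variable libraries, 3590, 3911 and 8811 genes and 3, 3 and 10 list genes were called. With only the 2 groups fitted, treated SHR against WKY gave 1026 genes. Leaving out 1 library gave 0 to 830 genes in treated SHR against SHR (830 without treated library 1), 167 to 626 in SHR against WKY (167 without WKY library 3, 626 without treated library 1) and 593 to 4791 in treated SHR against WKY (593 without WKY library 3, 4791 without treated library 1). List genes called numbered 0 to 1, 0 to 0 and 1 to 3, with 1 without WKY library 1 or 3 or treated library 2 or 3, when Cd79a alone was called. The cause was not tested. Among genes not called, the sign of the log2 change turned under some setting for 15, 14 and 6 of the 25. With 3 libraries per group, intervals of 1 or more log2 units, as for Lyz2, leave sizeable changes undetectable.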
